A study of Mus musculus with 5 samples.

Results

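The genes described here are named as nuclear subunits of respiratory complex I and were measured in sorted mouse pancreatic islet cells. They were chosen by name: a symbol starting with Ndufa, Ndufb, Ndufc, Ndufs or Ndufv and a digit, or Ndufab1, with the Ndufaf assembly factors left out. This gave 36 of the 19938 genes that had a probe set carrying a single gene symbol. They are called complex I genes below, although Ndufa4 and Ndufa4l2 match the names without being complex I subunits. Ndufb4 had no such probe set and is not among them. Where a gene had several such probe sets, the one with the highest mean signal over all arrays was used, so the overall level of a gene is part of how its probe set was picked. The group of genes was proposed with results of these arrays already known, so the counts below describe it and are not independent evidence of its direction.

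The study sorted islet cells by flow cytometry into a Flattop-positive fraction (3 arrays) and a Flattop-negative fraction (2 arrays). All arrays came from untreated C57BL/6 mice aged 8 to 12 weeks that were heterozygous for Flattop (FVR/+), so both fractions carry that allele. Each array was hybridised with RNA of a pool from 4 to 6 mice, and the sex of the mice was not determined. Flattop is encoded by Cfap126, and the title of the series asks which islet β-cells are proliferative and which are mature. The labels call the sorted cells islet cells and name no β-cell gate. Iapp, a peptide stored with insulin, lay between 12.65 and 12.92 on all arrays, near the top of the scale. Gcg, the glucagon gene of α-cells, lay as high, between 12.81 and 13.39. These levels therefore do not name the cell type of the pools. Nothing in the labels says whether the pools came from separate groups of mice, so the p-values measure the spread between these pools.

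Complex I, NADH:ubiquinone oxidoreductase, is the entry point of the mitochondrial respiratory chain. It takes electrons from NADH through a flavin and a row of iron-sulfur clusters to ubiquinone, and pumps protons across the inner membrane. In β-cells, respiration raises the ATP to ADP ratio after glucose uptake, which closes potassium channels and leads to insulin release. The enzyme has an L shape: the NADH-oxidising N module and the ubiquinone-binding Q module form the arm in the matrix, and the proximal and distal parts of the membrane arm carry the proton pumps. Core subunits do the catalysis and are conserved down to bacteria, and accessory subunits stabilise and help to assemble them.

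Promoter sequences were set beside the values because the genes share a product but did not differ alike between the fractions. RefSeq promoters (GRCm38.p6, 250 bases before to 50 after the gene's start) were found for 32 of the 36 genes. Those of 4 genes are shown 5′ to 3′ on the strand of the gene: Ndufs7 (chr10:80249199-80249498, plus strand) and Ndufs5 (chr4:123718137-123718436, minus strand), the genes with the smallest p-values, and Ndufv1 (chr19:4012706-4013005, minus strand) and Ndufv2 (chr17:66101510-66101809, minus strand), partners in the enzyme of which Ndufv1 had a large difference and Ndufv2 a difference near 0. The last pair was chosen after its values were seen. Capitals mark matches to the motifs searched.
Ndufs7: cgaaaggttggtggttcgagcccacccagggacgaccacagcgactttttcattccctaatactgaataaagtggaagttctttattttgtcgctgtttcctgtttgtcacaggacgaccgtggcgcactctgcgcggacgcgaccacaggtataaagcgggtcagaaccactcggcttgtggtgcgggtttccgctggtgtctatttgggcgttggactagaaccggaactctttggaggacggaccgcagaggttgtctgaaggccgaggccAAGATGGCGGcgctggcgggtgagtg
Ndufs5: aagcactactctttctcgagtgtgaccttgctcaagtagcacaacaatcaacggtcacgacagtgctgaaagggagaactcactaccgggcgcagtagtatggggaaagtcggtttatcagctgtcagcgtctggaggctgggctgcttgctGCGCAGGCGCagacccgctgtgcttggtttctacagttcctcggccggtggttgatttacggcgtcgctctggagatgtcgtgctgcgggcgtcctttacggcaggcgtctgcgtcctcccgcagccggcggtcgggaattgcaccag
Ndufv1: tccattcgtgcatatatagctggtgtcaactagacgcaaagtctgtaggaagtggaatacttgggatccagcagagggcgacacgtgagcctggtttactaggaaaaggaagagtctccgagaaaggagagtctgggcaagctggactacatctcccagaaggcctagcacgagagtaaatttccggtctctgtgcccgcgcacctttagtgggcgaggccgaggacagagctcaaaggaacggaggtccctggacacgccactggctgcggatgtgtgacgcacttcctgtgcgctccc
Ndufv2: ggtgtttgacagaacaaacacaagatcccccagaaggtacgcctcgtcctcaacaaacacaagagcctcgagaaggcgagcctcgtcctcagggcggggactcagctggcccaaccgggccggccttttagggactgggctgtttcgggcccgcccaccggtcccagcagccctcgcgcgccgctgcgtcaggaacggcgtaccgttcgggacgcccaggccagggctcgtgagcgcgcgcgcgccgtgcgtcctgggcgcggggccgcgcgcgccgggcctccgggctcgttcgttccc

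On both strands, 3 short motifs were searched. That of NRF1 is the run in capitals in Ndufs5, with any base at the sixth place; that of YY1 is the run in capitals in Ndufs7; and that of ETS factors such as GABP is CCGGAAG. These factors are known regulators of respiratory chain genes. The NRF1 letters were in 6 of the 32 promoters (18.8%), against 7.85% of the 15614 genes on the arrays with a promoter and 5.19% of all 27025 genes with one. The YY1 letters were in 4 of them (12.5%, against 1.49% and 0.995%), at 25 to 36 bases after the start in Ndufs7, Ndufa9, Ndufs6 and Ndufs4. The ETS letters were in 4 (12.5%), between the 13.6% of genes on the arrays and the 9.93% of all genes. No match overlapped one of another motif in these promoters (0 overlaps), and 19 of the 32 promoters held none of the motifs in this window. Ndufs7 has the YY1 letters 25 bases after its start and Ndufs5 the NRF1 letters 98 bases before it, while the windows of Ndufv1 and Ndufv2 have neither these nor the ETS letters. The matches are a description: the YY1 letters stand both in Ndufs7, which differed by 1.91 log2 units, and in Ndufs4, which differed by 0.60.

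Facts of the arrays bear on all values below. The deposited values are log2 signals, so 1 unit is a 2-fold step. Cfap126, the gene the sort was based on, ran from 6.07 to 6.24 in the Flattop-positive fraction, above 5.44 and 5.52 in the other. The Flattop-negative arrays were the least alike of all pairs over all genes (r = 0.846) and over the 36 genes (r = 0.591), against 0.984 and 0.988 for Flattop-positive replicates 1 and 2. Flattop-positive replicate 3 and Flattop-negative replicate 2 shared a high signal of Xist (7.81 and 8.62, against 3.58 to 4.36 on the others). The same 2 arrays were high in stress-response genes, with a median over 12 genes of 9.80 and 9.26 against 6.39 to 7.60. Each such set of arrays holds both fractions, so differences within them are given below. The signal of olfactory receptor genes, whose 95th percentile lay between 4.29 and 4.86 on the arrays, marks the floor.

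Most complex I genes had a higher signal in the Flattop-positive fraction, though none passed the test adjusted over all genes. The median log2 difference, Flattop-positive minus Flattop-negative, was 1.10 over the 36 genes and -0.10 over all genes. The difference was above 0 for 34 of the 36, against 40.8% of all genes; it was above 0 for 30 on repeated quantile normalisation and for 26 after cyclic loess. At an adjusted p of 0.05 in limma, 0 of the 36 and 0 of 19938 genes passed (0.0%). At an unadjusted p under 0.05 and a difference of at least 1.5-fold, 18 lay higher, against 8.08% of all genes, and 1 lay lower, against 3.74%. Without the fold these counts were again 18 and 1 of the 36, and 1690 and 1070 of all genes. Each of the 18 was at least 2-fold higher, which holds for 5.55% of all genes whatever their p. For 21 genes all Flattop-positive arrays lay above both Flattop-negative arrays, against 13.7% of all genes, and for 1 gene all lay below, against 21.0%. In such pools, fewer cells of a type and less RNA per cell cannot be told apart.

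**Figure D1:**
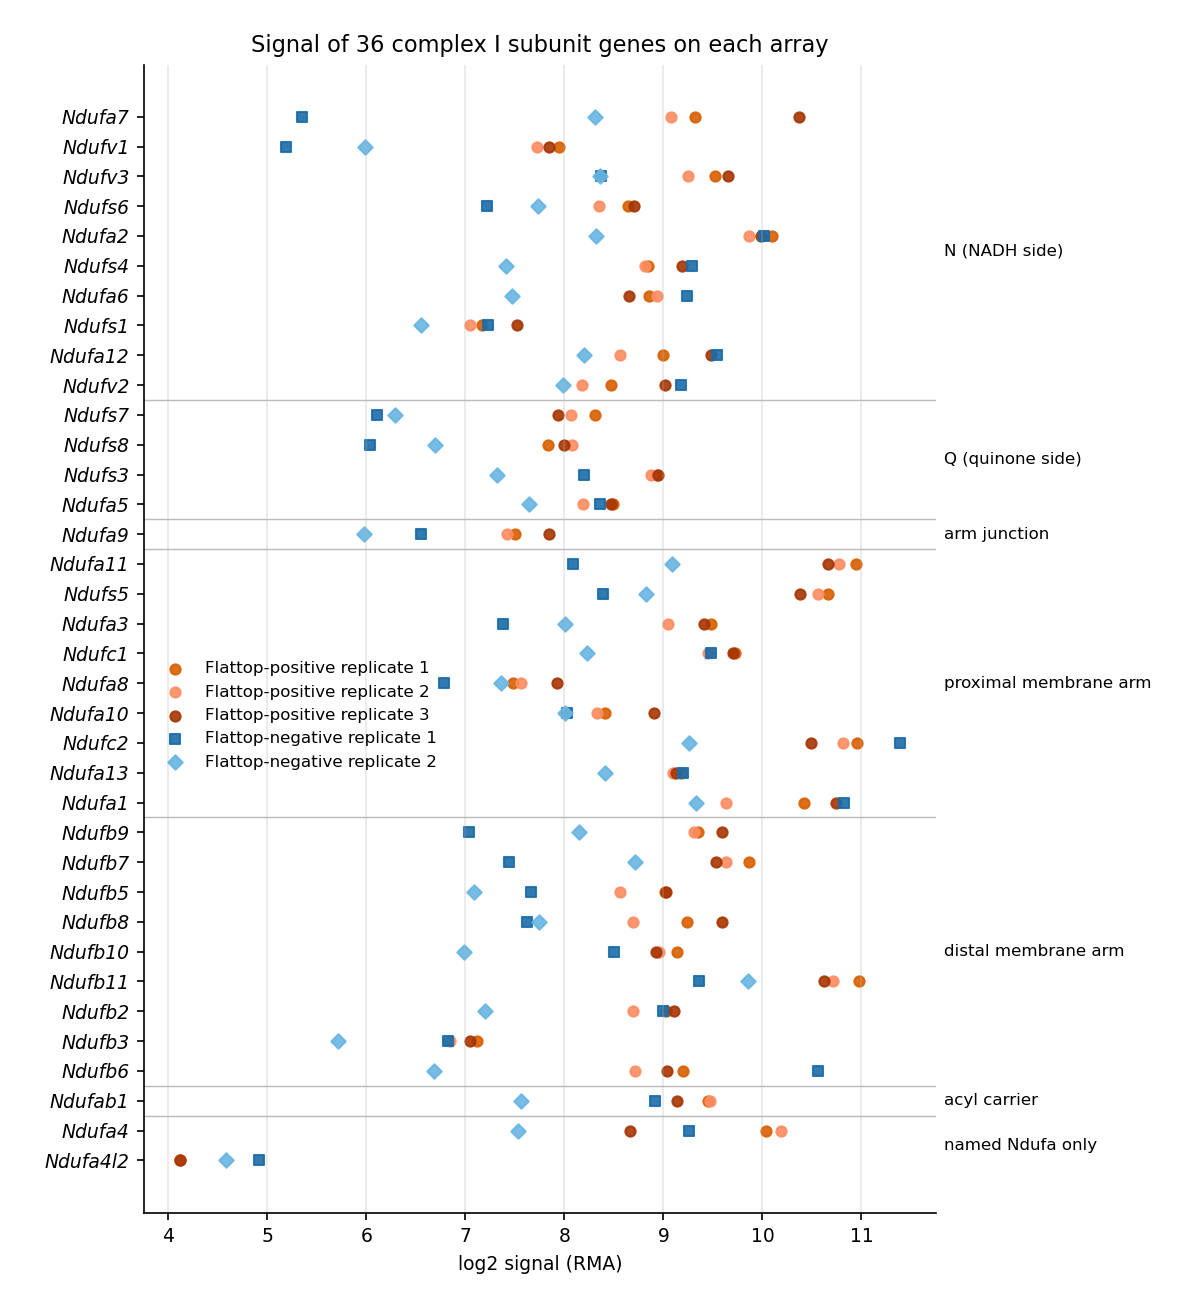
Log2 signal (horizontal axis) of each of the 36 genes on each array, grouped by the part of the enzyme the subunit belongs to and ordered by the difference between fractions. Circles are Flattop-positive arrays, the square and the diamond Flattop-negative replicates 1 and 2; for 21 genes the circles lie to the right of both, and for Ndufb6 they lie between them.

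The genes are bright, which matters here because in the deposited values bright genes as a whole lay higher in the Flattop-positive fraction. Of the 36, 33 had a mean signal of 7 or more, and their median difference was 1.11 against 0.40 for all 3890 genes in that range. On repeated quantile normalisation the median of the 3890 genes was 0.07, against 0.75 for the 36. After cyclic loess it was -0.05, against 0.61 for the 36. Among these 33, 17 met the unadjusted p and the 1.5-fold difference, against 23.0% of the genes in that range. The mean signal is partly set by the difference itself: 5 of the 33 (Ndufa7, Ndufa9, Ndufs1, Ndufs7 and Ndufs8) had a Flattop-negative mean under 7 and reached 7 through the Flattop-positive arrays, and 4 of them are among the 17. The same holds for 688 of the 3890 genes, of which 334 met both conditions. Without overlap, 33.2% of genes in that range lay higher. In the range from 8 to 9, where 17 of the genes fall, their median was 1.09 against 0.45 for all 1045 genes. Above 10 the 3 genes Ndufb11, Ndufa1 and Ndufc2 had a median of 0.43, against 0.54 for all 212 genes. The rank of the genes within each array, which no rescaling of an array can change, gave a like picture. The median percentile of the 36 was 95.7 to 96.0 on the Flattop-positive arrays, 93.5 on Flattop-negative replicate 1 and 90.5 on replicate 2. The number ranked above the 90th percentile was 28 to 30 on the Flattop-positive arrays and 21 and 19 on the Flattop-negative arrays.

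**Figure D2:**
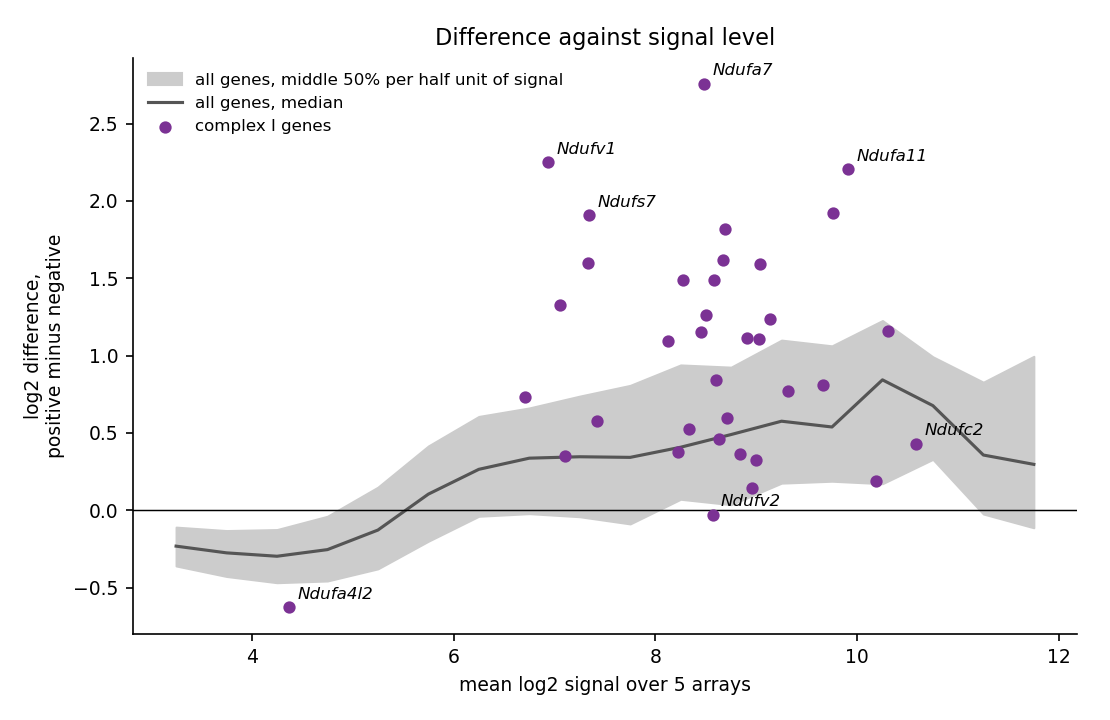
Log2 difference between fractions (vertical axis, Flattop-positive minus Flattop-negative) against the mean log2 signal over 5 arrays. Purple points are the 36 genes; the line and the grey band give the median and the middle 50% of all genes in steps of signal. Many complex I genes lie above the band, while Ndufv2 and Ndufc2 lie on or under the line.

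The core subunits differed unevenly. Over 6 nuclear core genes the median difference was 1.38, and 4 of the 6 met the unadjusted p and the 1.5-fold difference. Both conditions were met, in the higher direction, by 8.08% of all genes and 23.0% of those with a mean signal of 7 or more. Ndufv1 binds NADH and the flavin, where electrons enter the chain. Its signal was 7.94, 7.72 and 7.85 on Flattop-positive replicates 1 to 3, and 5.19 and 5.98 on Flattop-negative replicates 1 and 2. The groups were far apart, with a difference of 2.25 ± 0.29 (SE), or 4.76-fold (adjusted p = 0.198). Ndufv2 sits beside it and carries an iron-sulfur cluster. Its signal was 8.47, 8.18 and 9.02 on the Flattop-positive arrays and 9.18 and 7.99 on the Flattop-negative arrays. These overlapped, with replicate 1 of the negative fraction the highest of all and replicate 2 the lowest, and the difference was -0.03 ± 0.44 (SE; adjusted p = 0.981).

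Ndufs1 holds most of the iron-sulfur clusters of the N module. Its values of 7.17, 7.04 and 7.52 overlapped with 7.23 and 6.55 in the Flattop-negative fraction, a difference of 0.35 ± 0.29 (SE; adjusted p = 0.583). The 3 core genes of the Q module described here, in contrast, were higher without overlap, a difference between modules that was not tested. Ndufs7 carries the last cluster before ubiquinone, N2. Its signal was 8.31, 8.07 and 7.94 against 6.11 and 6.29. Both fractions were tight, and the difference of 1.91 ± 0.21 (SE), or 3.76-fold, had the smallest p of the 36 genes (unadjusted p = 0.000145, adjusted p = 0.198). Ndufs8, which holds a pair of clusters next to it, had 7.84, 8.08 and 7.99 against 6.04 and 6.70. That is a difference of 1.60 ± 0.26 (SE; adjusted p = 0.199). Ndufs3, a structural core subunit, had 8.93, 8.87 and 8.95 against 8.20 and 7.32, and a difference of 1.15 ± 0.30 (SE; adjusted p = 0.253).

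Accessory subunits of the N module split in the same way as its core. Of the 10 genes of the module, core included, 4 met the unadjusted p and the 1.5-fold difference, and the median was 0.70. Of these 10 genes, 9 had a mean signal of 7 or more, where 23.0% of genes met both conditions. Ndufa7 had the largest difference of the 36 genes, 2.76 ± 0.91 (SE; adjusted p = 0.307), but it rested on uneven arrays. Its signal was 9.32, 9.08 and 10.37 in the Flattop-positive fraction, and 5.35 and 8.31 in the Flattop-negative fraction. Leaving out Flattop-negative replicate 2 gave 4.24, and leaving out replicate 1 gave 1.28. Ndufv3, a small subunit with tissue-specific splice forms, was far steadier, with 9.52, 9.25 and 9.65 against 8.37 and 8.36 (1.11 ± 0.21 SE). Ndufs6, a zinc-binding subunit added late in assembly, differed by 1.09 ± 0.25 (SE). The others of the module, Ndufa2, Ndufs4, Ndufa6 and Ndufa12, overlapped between fractions and had differences of 0.15 to 0.81. In Ndufa12 the Flattop-positive arrays had 8.995, 8.56 and 9.49 and the Flattop-negative arrays 9.54 and 8.20, a difference of 0.15 ± 0.48 (SE; adjusted p = 0.899). Ndufs4, whose loss in mice causes a model of Leigh syndrome, had 8.85, 8.82 and 9.18 against 9.29 and 7.41.

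At the junction of the arms, Ndufa9, a subunit near the ubiquinone site, had 7.50, 7.43 and 7.85 against 6.55 and 5.98. It lay higher without overlap, by 1.33 ± 0.26 (SE; adjusted p = 0.214). Ndufa5, the accessory subunit of the Q module, overlapped at 8.49, 8.18 and 8.47 against 8.36 and 7.65.

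In the proximal membrane arm 3 of 9 genes met the unadjusted p and the 1.5-fold difference, with a median of 0.58. All 9 had a mean signal of 7 or more, where 23.0% of genes met both conditions. With so few genes, the count is not read as a result about this part. Ndufs5 has a fold held by disulfides and faces the intermembrane space. Its signal was 10.66, 10.56 and 10.38 in the Flattop-positive fraction and 8.39 and 8.83 in the Flattop-negative fraction. The difference was 1.92 ± 0.23 (SE), or 3.79-fold (adjusted p = 0.198). Another probe set, annotated to both Ndufs5 and Ndufs5-ps and therefore not used as a member, had 9.40 to 9.53 against 7.46 on both Flattop-negative arrays. Ndufa11, which spans the membrane and lies next to complex III in respiratory supercomplexes, had 10.95, 10.77 and 10.66 against 8.09 and 9.08. The difference was 2.21 ± 0.33 (SE; adjusted p = 0.198), and 2.52 on its other probe set. Ndufa3, a small membrane subunit, had 9.49, 9.04 and 9.41 against 7.38 and 8.01 (1.62 ± 0.28 SE; adjusted p = 0.199).

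The rest of the proximal arm differed less. Ndufa8 and Ndufa10 lay higher without overlap by 0.58 ± 0.27 and 0.53 ± 0.24 (SE), both short of the unadjusted threshold. Ndufc1, Ndufc2, Ndufa13 and Ndufa1 overlapped. Ndufa1, an X-linked gene for a small membrane subunit, had 10.42, 9.63 and 10.74 against 10.83 and 9.33, a difference of 0.19 ± 0.55 (SE; adjusted p = 0.885). Ndufc2 had 10.96, 10.81 and 10.49 against 11.39 and 9.26, so that a Flattop-negative array was the highest of all and the other was the lowest.

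The distal membrane arm, built from the Ndufb subunits, had 6 of 9 genes past the unadjusted p and the 1.5-fold difference and a median of 1.26. Of these 9 genes, 8 had a mean signal of 7 or more, where 23.0% of genes met both conditions. Ndufb5 had 9.01, 8.56 and 9.02 against 7.66 and 7.09 (1.49 ± 0.28 SE; adjusted p = 0.207). Ndufb8, often used as a blot marker of assembled complex I, differed by 1.49 ± 0.30 (SE). Ndufb9 differed by 1.82 ± 0.36, Ndufb7 by 1.60 ± 0.40, Ndufb10 by 1.26 ± 0.46 and Ndufb11 by 1.16 ± 0.24 (SE). Ndufb3 lay higher without overlap by 0.73 ± 0.36 (SE), and Ndufb2 overlapped. Ndufb6 was the least even of all: 9.20, 8.71 and 9.04 on the Flattop-positive arrays, 10.56 on Flattop-negative replicate 1 and 6.68 on replicate 2. Its mean difference of 0.36 ± 1.09 (SE) describes neither array. Ndufb4 was not counted as a member because its probe sets also name Ndufb4b; they had 8.65 to 8.98 in the Flattop-positive fraction and 6.41 to 7.74 in the Flattop-negative fraction, without overlap.

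The remaining genes have other roles. Ndufab1 is the mitochondrial acyl carrier protein, which binds complex I and also serves lipoic acid and iron-sulfur cluster synthesis. Its signal was 9.45, 9.47 and 9.14 against 8.92 and 7.56 (1.12 ± 0.42 SE; adjusted p = 0.342). Ndufa4 was named as a complex I subunit but is now assigned to complex IV. It had 10.03, 10.19 and 8.66 against 9.25 and 7.53, which overlap (1.23 ± 0.68 SE; adjusted p = 0.461). Ndufa4l2, a hypoxia-inducible relative of Ndufa4 that matches the naming rule, was the gene that lay lower. It had 4.12 on each Flattop-positive array and 4.91 and 4.59 on the Flattop-negative arrays, under the olfactory receptor floor on 4 of the 5 arrays, so no fold is given. Without Ndufa4 and Ndufa4l2, 33 of 34 genes had a difference above 0, and the median was unmoved at 1.10.

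**Figure D3:**
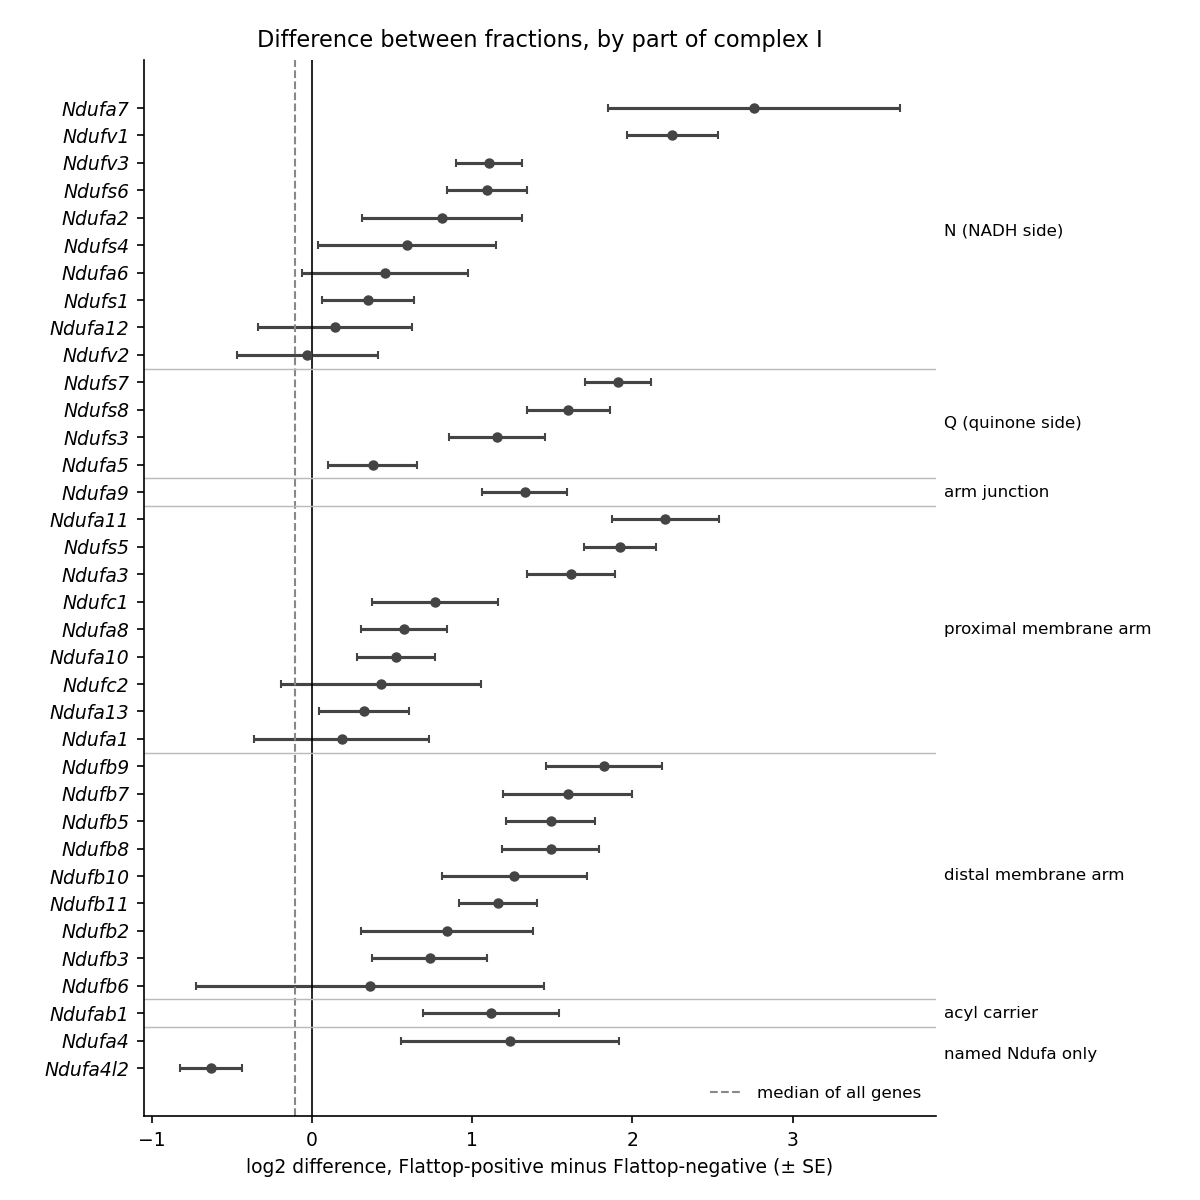
Log2 difference between fractions (points, Flattop-positive minus Flattop-negative) with its standard error from limma (bars, 3 against 2 arrays), for the 36 genes by part of the enzyme. Parts hold both large and small differences, from -0.03 for Ndufv2 to 2.76 for Ndufa7 in the N module, and the dashed line marks the median of all genes at -0.10.

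The Flattop-negative arrays differed from each other in which complex I genes were low. On replicate 2, 35 of the 36 genes lay below all Flattop-positive arrays, the exception being Ndufa4l2. On replicate 1 this held for 21, and 9 genes lay above all Flattop-positive arrays: Ndufb6, Ndufc2, Ndufa6, Ndufs4, Ndufv2, Ndufa12, Ndufa1, Ndufa13 and Ndufa4l2. The shares of all genes with these patterns are not given here. Against Flattop-positive replicate 3 alone, replicate 2 was the lower for 72.6% of genes with a mean signal of 7 or more. The Flattop-negative arrays lay over 1 log2 unit apart for 17 of the 36 genes, while 29 of the 36 lay within 0.5 unit over all Flattop-positive arrays. The median absolute gap between the Flattop-negative arrays was 0.94 over the 36 genes and 0.46 over all genes. The median SD of the genes was 0.66 in the Flattop-negative and 0.19 in the Flattop-positive fraction, against 0.60 and 0.27 for all genes with a mean signal of 7 or more. Replicate 1 was the lower of the Flattop-negative arrays for 13 genes, among them 12 of the 18 that met the unadjusted p and the 1.5-fold difference. Over all genes it was the lower for 54.5%, and over those of a mean signal of 7 or more for 47.7%. Genes such as Ndufv1, Ndufs7, Ndufs5, Ndufa11 and Ndufs8 were thus low on both arrays and lowest on replicate 1, and genes such as Ndufb6, Ndufc2 and Ndufs4 were low on replicate 2 and high on replicate 1. Whether RNA quality or amplification differed between these arrays was not tested.

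**Figure D4:**
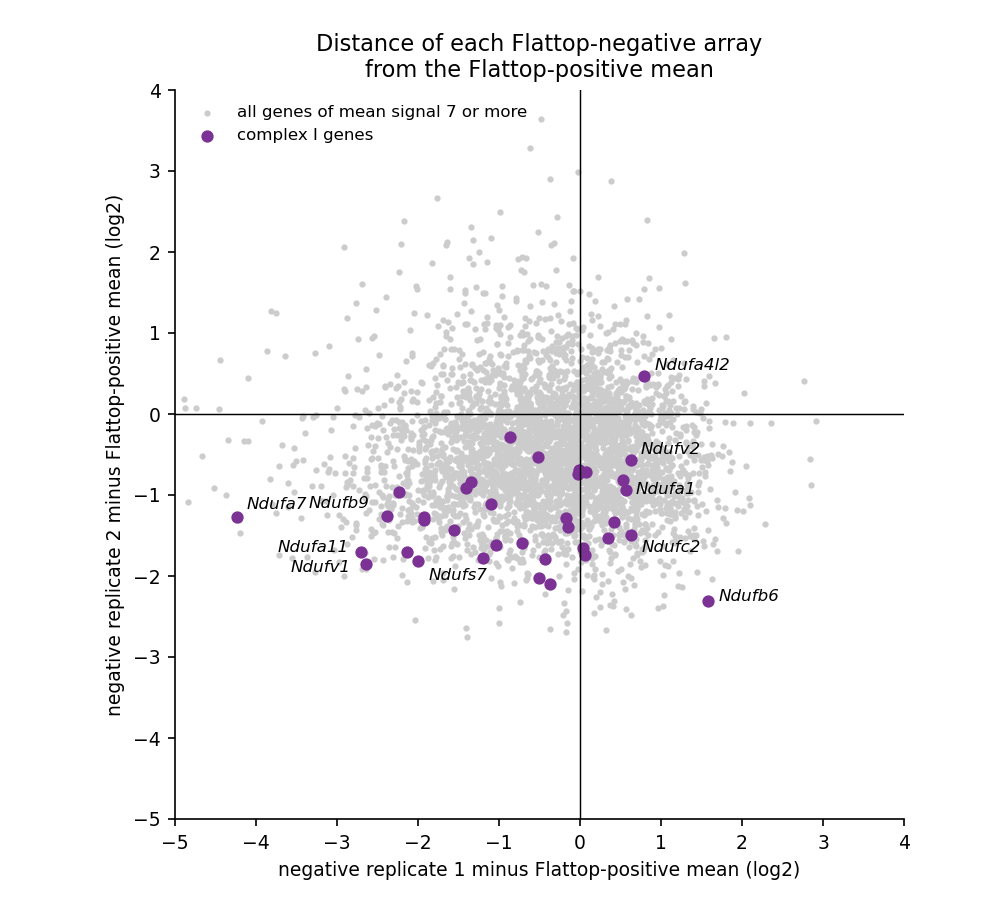
Distance of each Flattop-negative array from the Flattop-positive mean in log2 units, replicate 1 on the horizontal and replicate 2 on the vertical axis, for the 36 genes (purple) and all genes with a mean signal of 7 or more (grey; 2 of 3890 fall outside the axes). All purple points but Ndufa4l2 lie below 0 on replicate 2, and they spread from Ndufa7 on the left to Ndufb6 on the right on replicate 1.

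Leaving out an array moved these results. Without Flattop-negative replicate 2 the median over the 36 genes was 0.51, with 25 above 0 and 11 below. In that fit, in which the lone Flattop-negative array is assumed to vary like the others, Ndufv1, Ndufa11, Ndufb9, Ndufb7, Ndufs5, Ndufs8 and Ndufs7 passed the adjusted threshold (7 of the 36; adjusted p = 0.0412 to 0.0445), as did 434 of all genes. Without Flattop-negative replicate 1 the median was 1.32, 28 genes met the unadjusted p and the 1.5-fold difference, and 0 passed the adjusted threshold. In that fit more genes met both conditions in general, 12.2% of all genes and 33.6% of those with a mean signal of 7 or more. Over the 36 genes, the difference moved over 1.5 times or turned in sign for 21 when one or the other Flattop-negative array was left out. Of the list of 18 these were 5: Ndufa7, given above, and the next 4. Ndufab1 had 0.44 without replicate 2 and 1.80 without replicate 1, Ndufb10 had 0.50 and 2.02, and Ndufs3 had 0.71 and 1.60. Ndufb7 went the other way, with 2.23 and 0.96. Outside the 18, Ndufb3 had 0.18 without replicate 2 and 1.29 without replicate 1, Ndufa4 had 0.37 and 2.09, and Ndufa8 had 0.86 and 0.29. The small differences had no settled sign: after cyclic loess those of Ndufa1, Ndufa12, Ndufa13, Ndufa5, Ndufa6, Ndufb6, Ndufc2 and Ndufs1 lay below 0, and with arrays centred on their medians that of Ndufv2 lay above 0.

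Within the arrays with low Xist, where Flattop-positive replicates 1 and 2 stand against Flattop-negative replicate 1, the median difference of the 36 genes was 0.62, against -0.08 over all genes and 0.36 over those with a mean signal of 7 or more. Of the 36, 23 lay above 0 (63.9%), near the 63.0% of genes in that range of signal. Within the arrays with high Xist and high stress genes, Flattop-positive replicate 3 against Flattop-negative replicate 2, the median was 1.41 against -0.10 and 0.46, and 35 lay above 0 (97.2%, against 72.6% of genes in that range). In both comparisons 11 genes were at least 2-fold higher: Ndufa11, Ndufa3, Ndufa7, Ndufb5, Ndufb8, Ndufb9, Ndufs5, Ndufs7, Ndufs8, Ndufv1 and Ndufv3. At least a 2-fold higher level was seen for 10.2% and 8.58% of all genes in the respective comparison, and for 28.1% and 23.5% of those with a mean signal of 7 or more. Of the 36 genes, 14 and 27 reached it. The share of all genes that reached it in both comparisons is not given here. With this split as a block in the fit, the median was 0.98 and 20 of the 36 met the unadjusted p and the 1.5-fold difference, as did 9.64% of all genes and 27.3% of those with a mean signal of 7 or more.

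Markers of cell types also differed between the arrays. Of 13 β-cell markers, 13 lay higher in the Flattop-positive fraction, against 40.8% of all genes, with a median of 1.21. Most of these markers are bright: 12 had a mean signal of 7 or more, where the median of all genes was 0.40. The summed linear signal of the 13 markers was 25811 to 30832 on the Flattop-positive arrays against 20418 and 20924. Over all genes this sum was 2322636 to 2551386 against 2008466 and 2099141. Of 10 α-cell markers 7 lay lower, as did 11802 of all 19938 genes. Sums over these 10 markers were 13646 to 16543 against 10705 and 19009. The sum over 8 genes of δ, PP and ε cells was 15770 to 24051 against 4114 and 33021, so the Flattop-negative arrays were the lowest and the highest. Immune markers (17 genes) summed to 430 to 539 against 380 and 1299, and stellate markers (12) to 241 to 306 against 289 and 797, high on replicate 2. Acinar markers (14) summed to 383 to 808 against 566 and 777, and duct markers (8) to 4646 to 7377 against 3794 and 6859. Endothelial markers (12) summed to 171 to 184 against 196 and 285, and glial markers (7) to 130 to 158 against 167 and 186. Under the floor on all 5 arrays were 7 of the endothelial, 4 each of the acinar, immune, stellate and glial and 1 of the duct markers. The sum of the 36 complex I genes was 21185 to 24524 against 17082 and 9218. The part of these markers in the complex I values was not tested.

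Genes that build complex I had a smaller median difference than its subunits, a contrast that was not tested. Of 18 assembly factors measured, 3 met the unadjusted p and the 1.5-fold difference, all higher, against 8.08% of all genes, and the median was 0.46. Most were dim, with 4 of the 18 at a mean signal of 7 or more. The 3 that met both conditions were Ecsit, Ndufaf3 and Timmdc1. Ecsit, which also acts in innate immune signalling, was under the floor on Flattop-negative replicate 1, so no size of difference is given. Ndufaf3 (0.98 ± 0.22 SE) helps to form the Q module. Timmdc1 (0.61 ± 0.18 SE) is a membrane anchor of assembly. Nubpl, which delivers iron-sulfur clusters to complex I, was under the floor on all arrays but Flattop-negative replicate 1, where it had 5.06, so no difference is given. Of the 7 subunits encoded by mitochondrial DNA, ND3 was measured, at 12.30, 11.91 and 11.50 against 12.40 and 11.21. These overlapped, with a difference of 0.10 ± 0.43 (SE; adjusted p = 0.928).

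The other respiratory complexes also had medians above 0. Medians were 1.49 for complex II (4 genes), 0.94 for complex III (9), 0.83 for complex IV (10) and 1.39 for ATP synthase (15), against 1.10 for the complex I genes, and these differences between complexes were not tested. The unadjusted p and the 1.5-fold difference were met by 4, 8, 3 and 11 of these genes, all higher, against 8.08% of all genes. All of these genes had a mean signal of 7 or more, where 23.0% of genes met both conditions, and the 3 of 10 in complex IV are near that share. Sdha, the flavoprotein of succinate dehydrogenase, had 8.75, 8.59 and 8.51 against 7.15 and 7.61. The uneven Flattop-negative arrays appeared here as well: Uqcrb of complex III had 9.38, 8.77 and 9.61 against 10.65 and 7.77, much like Ndufb6.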

How the data were processed

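RNA of 5 pools was amplified with Ovation PicoSL WTA reagents and hybridised to arrays, per the labels. The authors deposited 1 log2 signal for each probe set. Per the submitters' processing notes they used RMA and the program Affymetrix Expression Console (version 1.3.0.187); the genome build was not given in the sources used here. RMA normalises between arrays, which can shift dim and bright genes apart. Of 35556 probe sets, the 21789 with a single symbol in the platform's annotation gave 19938 genes. Fractions were compared in limma 3.58.1 (R 4.3.3), with group as the only term, and two-sided p-values were adjusted by Benjamini-Hochberg over all genes. Detection calls were not used, and the number of arrays limits the precision. The members, gene lists and tests were chosen with earlier results of these data known. Values on each array are given for the core subunits, the 5 other members with the smallest p, the 3 with the lowest difference, Ndufa9, Ndufab1, Ndufa4 and Ndufa4l2; others were named after their values were seen. Of lists, the genes named are up to 3 with the smallest p and the lowest. Alternatives were a replicate block, each array left out, a block by Xist, dim genes left out, other normalisations, the mean of probe sets, a variance trend, array weights and other fold thresholds. Tables were handled in pandas 2.3.3 and figures drawn in matplotlib 3.10.9.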

Additional observations from a re-analysis of the deposited data

How the results depend on the processing

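Over all genes with a mean signal of 7 or more, the median difference was 0.40 in the main fit. On repeated quantile normalisation it was 0.07, after cyclic loess -0.05, and without Flattop-negative replicate 2 it was 0.35. The median difference of the 36 complex I genes, 1.10 in the main fit, moved beyond the spread of the array medians within fractions (SD 0.27) on repeated quantile normalisation (0.75), after cyclic loess (0.61) and without Flattop-negative replicate 2. With each array left out in turn it ran from 0.51 to 1.32, the count at the unadjusted p and 1.5-fold from 15 to 28, the count without overlap from 21 to 35, the genes past the adjusted threshold from 0 to 7, and all genes past it from 0 to 434. Over 14 alternatives, 14 genes met the unadjusted p and the 1.5-fold difference each time: Ndufa11, Ndufa3, Ndufa9, Ndufb11, Ndufb5, Ndufb7, Ndufb8, Ndufb9, Ndufs3, Ndufs5, Ndufs7, Ndufs8, Ndufv1 and Ndufv3. The sign turned under some alternative for 12 genes, none past the adjusted threshold there; cyclic loess left 26 genes above 0 and 10 below. The alternatives refit the same arrays, and the shares of all genes beside the 14 and the 12 are not given here. With the replicate number as a block the median was 1.02 and 19 genes met the unadjusted p and the 1.5-fold difference. Only Flattop-positive replicate 3 has the number 3, so the block gave the same differences as leaving out that array. Deviations of same-numbered arrays correlated at 0.182 and -0.137, and those of Flattop-positive replicate 3 and Flattop-negative replicate 2 at 0.225. With 2 Flattop-negative arrays the deviations of one mirror those of the other, so these correlations cannot judge a pairing. The causes of these shifts were not tested. Signal over the floor limits Ndufa4l2; the other 35 genes lay above it on all arrays. Leaving out Ndufa4 and Ndufa4l2 was added after the data had been seen.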

Other observations

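Genes that make iron-sulfur clusters, the electron carriers of complex I, lay higher in the Flattop-positive fraction by a median of 0.92 (11 genes), and 5 met the unadjusted p and the 1.5-fold difference, against 8.08% of all genes and 23.0% of those with a mean signal of 7 or more, where 6 of the 11 lie. Bola3, which helps to hand clusters to lipoic acid synthase and respiratory enzymes, had 7.43, 7.12 and 7.43 against 6.01 and 5.88 on the Flattop-negative arrays (1.38 ± 0.20 SE; adjusted p = 0.198). Isca2 differed by 1.33 ± 0.22 (SE; adjusted p = 0.199). The cysteine desulfurase Nfs1, counted among the 5, had 5.68, 5.98 and 5.65 against 4.66 and 4.58, under the floor on both Flattop-negative arrays, so no size of difference is given. Iba57, which works with Isca2, overlapped (-0.14 ± 0.30 SE).

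Regulators of respiratory genes had a median of 0.15 over 12 genes. The coactivator Ppargc1a had 6.50, 5.32 and 6.36 against 7.39 and 7.58, lower in the Flattop-positive fraction without overlap (-1.43 ± 0.40 SE; adjusted p = 0.270). Nrf1, which encodes the factor whose letters were searched in the promoters, had 5.95, 5.95 and 5.65 against 4.82 and 5.36 (0.76 ± 0.25 SE; adjusted p = 0.304).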
